A study of Mus musculus with 2 samples.

Results

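The small leucine-rich proteoglycans (SLRPs) are secreted matrix proteins, and 10 of their genes were followed here: Dcn, Bgn, Aspn, Fmod, Lum, Kera, Prelp, Omd, Ogn and Podn. They were chosen by symbol, as the 10 matching rows among the 33696 genes listed for both libraries. The rule used no measured value, but earlier results of these data were known when the genes were chosen. The cells came from hindlimb digits of neonate ICR mice, an outbred strain, whose middle phalanx (P2) was amputated at postnatal day 3. At postnatal day 7 an agarose bead carrying FGF8 at 500 ng/μl, or bovine serum albumin (BSA) at 0.1% as the control, was set into the wound. Tissue was taken after another 24 h, on postnatal day 8. Each treatment was a single library made from 20 pooled digits of 5 mice of both sexes, after the epithelium had been taken off and the tissue distal to the stump dissected. All digits of a treatment were pooled, so the FGF8 library may hold digits that would not have regenerated. With 1 library per treatment no difference between treatments could be tested, and every interval given is a 95% interval of counting error alone, which does not cover the spread between animals or preparations.

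The FGF8 library held 7249 cell barcodes and the BSA library 3703, of which 6715 and 3252 passed the filters, with medians of 12251 and 15377 unique molecular identifiers (UMIs, each standing for 1 captured transcript molecule) per cell. Of these, 3270 (48.7%) and 1661 (51.1%) were fibroblast-like, a cluster led by Mfap5, Mfap4 and Dpt in which all 10 fibroblast markers were detected. The sexes were unevenly represented: of sex-called fibroblast-like cells, 24.4% were female in FGF8 and 80.1% in BSA. The 2 libraries shared 6 barcodes.

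SLRPs share a core of leucine-rich repeats that docks on collagen fibrils, and most carry glycosaminoglycan chains that stand out from the fibril surface. Together they set fibril diameter and spacing in skin, tendon, cartilage and cornea, and several bind growth factors such as TGF-β in the matrix. They are grouped in classes. Class I comprises decorin (Dcn) and biglycan (Bgn), which carry chondroitin or dermatan sulfate, and asporin (Aspn), which has an aspartate-rich stretch and no such chain. Class II comprises fibromodulin (Fmod), lumican (Lum), keratocan (Kera) and osteomodulin (Omd), which can carry keratan sulfate, and PRELP (Prelp), which has a basic, heparin-binding end. Osteoglycin (Ogn) belongs to class III and podocan (Podn) to class V.

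Several of the genes lie next to each other in the mouse genome (GRCm39, GENCODE vM39). On chromosome 10, Dcn (97315275 to 97358155), Lum (97400990 to 97408577) and Kera (97442728 to 97449554) follow each other on the plus strand at gaps of 42.8 and 34.2 kb, with Epyc, another gene of the family, 30.3 kb beyond Kera. On chromosome 13, Aspn (49697609 to 49721057), Omd (49735938 to 49746298) and Ogn (49761349 to 49780412) follow Ecm2 on the plus strand at gaps of 9.64, 14.9 and 15.1 kb, and all of them lie inside Cenpp, a centromere protein gene on the minus strand. Cell Ranger counts reads by strand, and Cenpp itself stood at 38.4 CPM (counts per 1000000 UMIs of the cells summed) in BSA and 57.1 in FGF8 fibroblast-like cells. On chromosome 1, Prelp (133837335 to 133857971, minus strand) lies 107 kb from Fmod (133964992 to 133976015, plus strand). Bgn is on the X chromosome (72527208 to 72539541, plus strand) and Podn on chromosome 4 (107871988 to 107889534, minus strand).

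Start regions of 8 of the 10 genes had an entry in the RefSeq promoter table (build GRCm38.p6, 250 bases before to 50 after the start), all but Dcn and Lum. Those of Aspn, Ogn, Fmod and Kera are shown because these 4 genes had the lowest FGF8 to BSA ratios described further on. They run 5′ to 3′ on the plus strand, at chr13:49544193-49544492 for Aspn, chr13:49607765-49608064 for Ogn, chr1:134037004-134037303 for Fmod and chr10:97606955-97607254 for Kera, and capitals mark TATAAA on either strand.
Aspn: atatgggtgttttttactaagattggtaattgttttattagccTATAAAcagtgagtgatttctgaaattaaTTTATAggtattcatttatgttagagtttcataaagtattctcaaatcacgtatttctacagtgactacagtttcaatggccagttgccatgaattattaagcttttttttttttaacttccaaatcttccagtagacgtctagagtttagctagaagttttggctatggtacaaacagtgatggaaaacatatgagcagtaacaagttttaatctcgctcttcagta
Ogn: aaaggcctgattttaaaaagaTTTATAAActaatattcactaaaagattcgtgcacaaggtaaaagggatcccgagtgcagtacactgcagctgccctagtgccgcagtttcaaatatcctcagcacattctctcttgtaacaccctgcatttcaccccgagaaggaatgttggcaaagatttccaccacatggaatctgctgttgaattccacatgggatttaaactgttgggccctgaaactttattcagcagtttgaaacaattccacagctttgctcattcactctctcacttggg
Fmod: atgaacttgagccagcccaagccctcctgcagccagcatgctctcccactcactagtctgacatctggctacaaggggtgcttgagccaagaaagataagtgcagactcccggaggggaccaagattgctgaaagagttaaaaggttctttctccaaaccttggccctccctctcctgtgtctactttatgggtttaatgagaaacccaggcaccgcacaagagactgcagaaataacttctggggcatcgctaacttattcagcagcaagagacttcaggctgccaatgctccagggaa
Kera: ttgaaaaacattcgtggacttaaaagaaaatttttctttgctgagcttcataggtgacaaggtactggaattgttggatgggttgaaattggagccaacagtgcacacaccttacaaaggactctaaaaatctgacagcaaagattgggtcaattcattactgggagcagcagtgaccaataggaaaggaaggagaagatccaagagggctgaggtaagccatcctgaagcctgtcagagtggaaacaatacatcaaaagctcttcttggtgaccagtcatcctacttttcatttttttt
The letters TATAAA stood in the windows of Aspn and Ogn, 207 and 178 bases before the start in Aspn and, as copies on both strands that overlap, 229 and 227 bases before it in Ogn. They stood in 13.6% of all 32851 start regions in the table. The AP-1 letters TGANTCA (7.81% of all start regions) and the Ets letters CCGGAAG (8.86%) were in none of the 8 genes' windows, and the GC box letters GGGCGG (35.7%) were in those of Bgn and Podn, both strands searched in each case. The windows of Aspn, Omd, Kera and Ogn were 31.0%, 37.7%, 41.0% and 42.3% G plus C, and those of Fmod, Prelp and Bgn 51.0%, 55.3% and 63.7%, against a median of 52.7% over the table. Podn, with 2 entries, was at 63.0% and 77.0%.

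Most UMIs of each gene came from fibroblast-like cells, and 3 genes had their highest mean CPM of the libraries in chondrocyte-like cells. Fibroblast-like cells held between 68.9% (Omd) and 96.5% (Kera) of a gene's UMIs in the BSA library, and between 76.0% (Omd) and 97.3% (Kera) in the FGF8 library. These cells parted into 6 subclusters when all SLRP genes were kept out of the clustering. Subcluster 0 was led by mitosis genes (Ube2c, Plk1, Ccnb1) and by Prg4, the joint lubricant lubricin. Subcluster 1 was led by Chodl and Sema3a, subcluster 2 by Comp, Mgp and, although it was no clustering feature, Fmod, subcluster 3 by Lpl, Dlk1 and Pi16, and subcluster 5 by Coch and Nrg1. Subcluster 4, led by Lars2, held cells of few UMIs, with medians of 2618 in FGF8 and 3113 in BSA. Over 16 cell types and subclusters with at least 50 cells in each library, 7 of the 10 genes were highest in a fibroblast-like subcluster by the mean of the libraries' CPM, and Fmod, Prelp and Omd were highest in chondrocyte-like cells. Of the 16, 6 are fibroblast-like subclusters, and the share of all genes highest in them is not given.

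**Figure D1:**
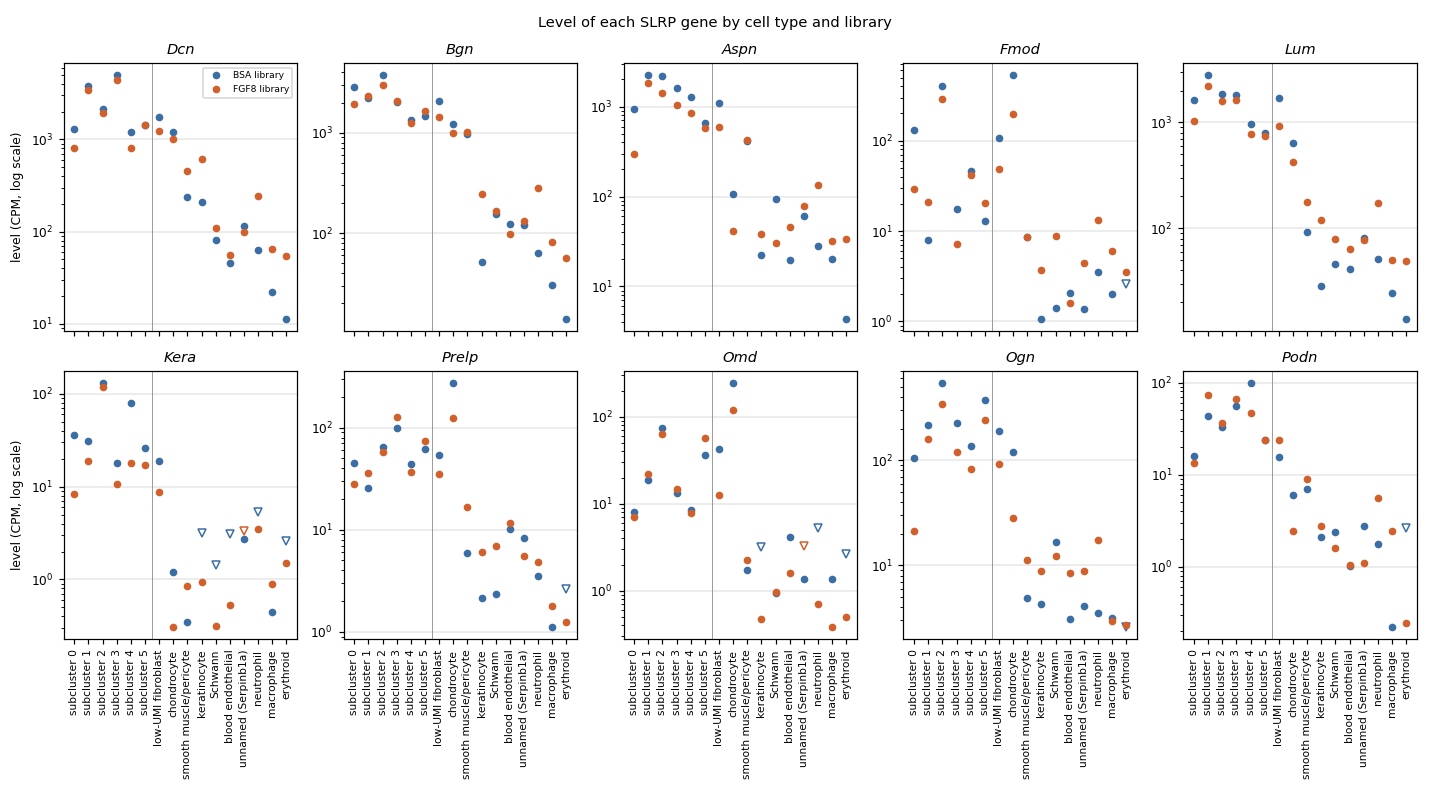
Level of each SLRP gene (CPM, log axis) in 16 cell types and fibroblast-like subclusters, with a blue point for the BSA library and an orange point for the FGF8 library. Open triangles mark types with no UMI, drawn at the 3 counts that a count of 0 allows. Levels left of the grey line are the 6 fibroblast-like subclusters, which hold the highest mean of the libraries for 7 genes. Fmod, Prelp and Omd have their highest mean in chondrocyte-like cells. In FGF8 alone, Fmod was higher in subcluster 2 (292 against 196 CPM) and Prelp in subcluster 3 (127 against 124).

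Decorin, which binds collagen I and caps fibril growth, was highest in subcluster 3, at 4974 CPM in BSA and 4371 in FGF8. Subcluster 1 came next at 3843 and 3456 CPM, below both libraries' values in subcluster 3. Dcn was lowest among the fibroblast-like subclusters in subclusters 0 (1290 and 807 CPM) and 4 (1212 and 812 CPM), which could not be parted by their library values. Biglycan was highest in subcluster 2 (3749 CPM in BSA, 2982 in FGF8). Its next subclusters overlapped, with 2834 and 1949 CPM in subcluster 0, 2249 and 2326 in subcluster 1 and 2017 and 2072 in subcluster 3. Asporin was highest in subcluster 1 (2229 and 1820 CPM), and the values of subcluster 2 (2185 and 1404 CPM) overlapped it.

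Among the class II genes, lumican was highest in subcluster 1 (2787 CPM in BSA, 2194 in FGF8), above subclusters 3 (1832 and 1620) and 2 (1840 and 1601), whose means were 1.00-fold apart. Keratocan, best known from the cornea, had a clear peak in subcluster 2 at 131 and 120 CPM, 2.55-fold over the next mean. Fibromodulin stood at 405 CPM in BSA and 292 in FGF8 in subcluster 2 and at 530 and 196 CPM in chondrocyte-like cells. These ranges overlapped, and both types lay above subcluster 0, the next in order, at 132 and 29.5 CPM. PRELP was highest in chondrocyte-like cells (273 CPM in BSA, 124 in FGF8) and next in subcluster 3, where it stood at 99.4 and 127 CPM, and these ranges met. Osteomodulin, known from bone and dentin matrix, was highest in chondrocyte-like cells at 245 and 121 CPM, above both values of subcluster 2 (74.3 and 63.1).

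Osteoglycin was highest in subcluster 2 at 541 CPM in BSA and 344 in FGF8, and next in subcluster 5 at 371 and 244 CPM. Podocan showed no clear peak. It was at 98.7 and 46.7 CPM in the low-UMI subcluster 4, at 55.9 and 65.9 in subcluster 3 and at 43.5 and 72.8 in subcluster 1. Subcluster 2, with Comp, Mgp and Fmod, was therefore first for Bgn, Kera and Ogn and second for Aspn, Fmod and Omd. Subclusters 1 and 3 held the top values of Dcn, Aspn and Lum.

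The genes also differed in how evenly they were spread over fibroblast-like cells. The 166 BSA and 327 FGF8 cells with the most UMIs of a gene, 10% of each library, held 31.4% and 26.7% of its UMIs for Bgn. For Kera such cells held 92.0% and 97.4%, for Omd 83.2% and 86.8%, and for Fmod 82.4% and 85.3%. Dcn, Bgn, Aspn and Lum were thus broad, and Kera, Omd and Fmod lay in few cells. With every cell thinned to 2000 UMIs, Bgn was found in 92.8% of BSA and 92.6% of FGF8 fibroblast-like cells, Ogn in 31.8% and 17.7%, Fmod in 12.3% and 7.29%, and Kera in 6.08% and 3.11%. Before thinning the shares were 97.5% and 97.2% for Bgn, 63.6% and 44.2% for Ogn, 26.4% and 23.9% for Fmod, and 18.3% and 11.4% for Kera. In neutrophil-like cells, which should lack these genes, the thinned shares were 15.1% and 41.6% for Bgn. Ogn was found in 2 of 146 and 12 of 387 such cells, Fmod in 2 and 8, and Kera in 0 and 4, with median depths of 3206 and 2296 UMIs against 20528 and 18818 in fibroblast-like cells. A fibroblast-like cell thinned to 2000 UMIs held a median of 4 of the 10 genes in both libraries, and 35.4% of BSA cells against 20.5% of FGF8 cells held at least 5.

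In several cell types the mixture of SLRP UMIs differed from that of the fibroblast-like cells. In smooth muscle or pericyte-like cells, Bgn made up 55.8% of the 10 genes' UMIs in BSA and 48.2% in FGF8, against 27.4% and 33.8% in fibroblast-like cells, and Lum made up 5.36% and 8.25%, against 20.3% and 21.1%. Bgn stood there at 971 CPM in BSA and 1029 in FGF8, and Aspn at 412 and 423 CPM. Bgn UMIs were found in 179 of 185 and 268 of 283 of these cells. In chondrocyte-like cells Fmod made up 12.2% and 6.68% of the UMIs, Prelp 6.28% and 4.21% and Omd 5.62% and 4.10%, each above its share in fibroblast-like cells, while Kera was nearly lacking with 2 and 1 UMIs. In keratinocyte-like cells Dcn made up 65.1% of the UMIs in BSA and 59.0% in FGF8. Of these Dcn UMIs, 75.5% lay in the 5 highest of 124 BSA cells and 39.8% in the 5 highest of 136 FGF8 cells, and whether these are doublets was not tested. In the 50 lymphatic endothelial-like cells of the BSA library Prelp stood at 115 CPM (95% interval 92.1 to 142), and it made up 6.09% of the SLRP UMIs there. The FGF8 library held 12 such cells, with 13 Prelp UMIs.

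Neutrophil-, macrophage- and erythroid-like cells carried the mixture of the fibroblast-like cells at a low level. In the FGF8 library Dcn, Bgn and Lum made up 27.5%, 32.0% and 19.9% of the SLRP UMIs of neutrophil-like cells and 26.4%, 33.8% and 20.7% of those of macrophage-like cells, against 28.1%, 33.8% and 21.1% in fibroblast-like cells. These low levels are not read as expression by those cells. They were higher in the FGF8 library, for example for Bgn in neutrophil-like cells at 280 against 63.8 CPM. No profile of empty droplets was analysed here, and the part of free RNA in these values was not tested.

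**Figure D2:**
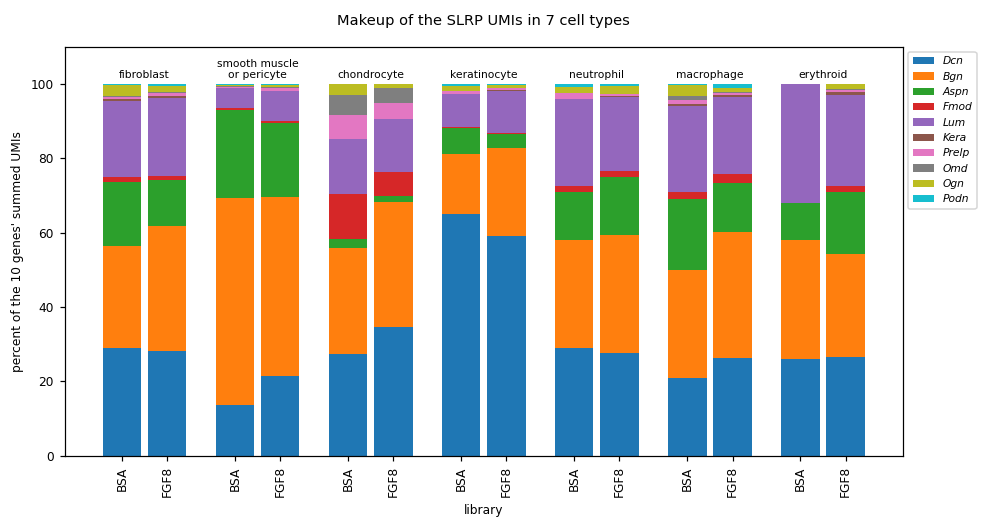
Share of each gene in the summed UMIs of the 10 SLRP genes (percent, stacked bars) for 7 cell types, with a bar per library. Smooth muscle or pericyte-like cells show a wide Bgn band (55.8% and 48.2%), keratinocyte-like cells a wide Dcn band (65.1% and 59.0%), and neutrophil-, macrophage- and erythroid-like cells bands close to those of fibroblast-like cells.

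The study's comparison was that of FGF8 with BSA beads. In fibroblast-like cells all 10 genes were lower in the FGF8 library, and their summed level was 6286 CPM against 9524 in BSA. Ogn was at 108 CPM in FGF8 and 276 in BSA, a log2 ratio of -1.35 (interval -1.40 to -1.31). Fmod stood at 61.0 and 131 CPM (log2 ratio -1.10, interval -1.16 to -1.04). Aspn, which binds TGF-β and collagen, was at 778 and 1650 CPM (log2 ratio -1.09, interval -1.10 to -1.07). Kera was at 25.8 and 53.1 CPM (log2 ratio -1.04, interval -1.14 to -0.95), an interval that reaches to less than 2-fold.

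The other 6 genes were less than 2-fold lower. Dcn was at 1763 CPM in FGF8 and 2753 in BSA (log2 ratio -0.64), Lum at 1326 and 1931 (-0.54) and Omd at 20.1 and 29.2 (-0.54). Bgn was at 2126 and 2611 CPM (-0.30), Prelp at 46.4 and 54.2 (-0.22) and Podn at 32.3 and 35.4 (-0.14). These 6 genes were thus nearer to the BSA level than Ogn, Fmod, Aspn and Kera.

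By this count 4 of the 10 genes were at least 2-fold lower, where 5.11% of the 20043 genes with at least 10 UMIs were, and none was 2-fold higher, where 6.5% were. All 10 ratios were below 0, as were 56.1% of those of all genes. The 10 intervals of counting error also lay below 0, but the share of all genes with such intervals is not given. The median log2 ratio was -0.59 for the SLRP genes and -0.07 for all genes. Of the 3 neighbours on chromosome 13, Aspn and Ogn were over 2-fold lower and Omd was not. On chromosome 10 Kera was, and Dcn and Lum were not.

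**Figure D3:**
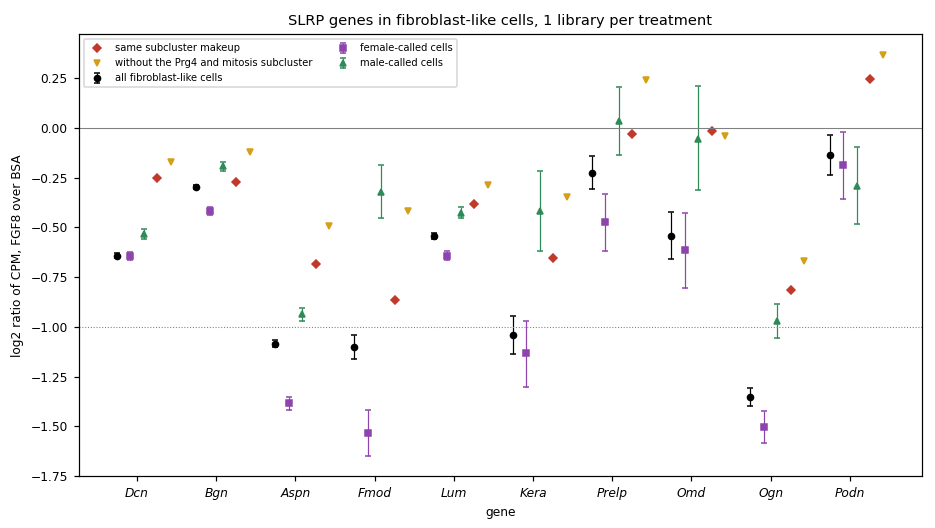
Log2 ratio of CPM, FGF8 over BSA, of each SLRP gene in fibroblast-like cells, with 1 library per treatment. Black points are all cells, purple squares and green triangles are female-called and male-called cells, bars are 95% intervals of counting error, and red and yellow marks are the ratios at the same subcluster makeup and without subcluster 0. The dotted line at -1 is 2-fold, and only black and purple marks lie below it, for Aspn, Fmod, Kera and Ogn.

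The count of 4 depended on which cells entered and how they were weighted. With subcluster 0 kept, it was 0 under the stricter cell filter and with cells thinned to 2000 UMIs, 1 with cells thinned to 5000 UMIs or weighted equally, and 2 with fibroblast-like cells called cell by cell. Subcluster 0, with Prg4 and mitosis genes, held 33.5% of the fibroblast-like population in FGF8 and 16.7% in BSA. Without it no gene was 2-fold lower, and the median log2 ratio was -0.23. With both libraries given the same subcluster makeup the count was also 0 and the median -0.33. In male-called cells alone it was 0 with a median of -0.37, and in female-called cells 4 with a median of -0.64. Fmod showed the widest gap between the sexes, at a log2 ratio of -1.53 among females and -0.32 among males, while Aspn stood at -1.38 and -0.94. The difference between the sexes was not tested. The ratios of 8 genes, all but Prelp and Podn, were below 0 under each of the 14 alternatives that were run for single genes. Some were very small, with Omd at -0.01 at the same subcluster makeup and Bgn at -0.08 with cells called cell by cell. The share of all genes below 0 under these alternatives is not given. Without subcluster 0, Prelp was at 0.24 and Podn at 0.37.

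Within subcluster 0 the ratios of Ogn, Fmod and Aspn were lower than in any other fibroblast-like subcluster. Ogn was at 21.2 CPM in FGF8 and 105 in BSA (log2 ratio -2.31, interval -2.45 to -2.17). Fmod was at 29.5 and 132 CPM (log2 ratio -2.16), Kera at 8.27 and 35.8 (-2.11) and Aspn at 298 and 951 (-1.67). The same 4 genes were over 2-fold lower in this subcluster, where 9.26% of 17306 genes were. Split by the sex call (females, then males), the log2 ratios here were -2.81 and -1.49 for Ogn, -2.14 and -2.02 for Fmod, -1.91 and -1.38 for Kera and -2.01 and -1.65 for Aspn, so that all 4 were over 2-fold lower in each sex. The other 6 genes lay between -0.68 (Dcn) and -0.18 (Omd).

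At a finer clustering, tried after the data were seen, subcluster 0 parted into cells led by Prg4 and Mmp3 (883 in FGF8, 208 in BSA) and cells led by histone genes (207 and 69). Among the cells led by Prg4 and Mmp3, Ogn stood at 17.9 CPM in FGF8 and 111 in BSA (log2 ratio -2.63), Fmod at 23.7 and 141 (-2.57), Kera at 7.61 and 39.7 (-2.38) and Aspn at 236 and 969 (-2.04). Among the cells led by histone genes, Ogn was at 34.0 and 88.3 CPM (-1.37), Kera at 11.5 and 23.9 (-1.05), Fmod at 55.0 and 104 (-0.92) and Aspn at 562 and 896 (-0.67). Dcn, at 655 and 1203 CPM in the former (-0.88), was at 1488 and 1553 in the latter (-0.06). Podn and Prelp had opposite signs in them, with log2 ratios of -0.88 and -1.16 in the former and of 1.00 (interval 0.51 to 1.52) and 0.59 (interval 0.25 to 0.95) in the latter. That difference was not tested.

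In the other subclusters the direction was mixed. In subcluster 1, Fmod was higher in FGF8 at 20.7 against 7.92 CPM (log2 ratio 1.39, interval 1.00 to 1.79), while Aspn was at 1820 and 2229 CPM (-0.29) and Ogn at 159 and 216 (-0.44). Fmod was the 1 gene over 2-fold higher there, where 5.28% of 15436 genes were. Its level there was low, and neutrophil-like cells, which should lack it, held 13.2 CPM in FGF8 and 3.54 in BSA. The part of free RNA in the subcluster 1 value was not tested. In subcluster 2, the site of highest Ogn and Kera, Ogn was at 344 and 541 CPM (-0.65), Aspn at 1404 and 2185 (-0.64), Fmod at 292 and 405 (-0.47) and Kera at 120 and 131 (-0.13). No SLRP gene passed 2-fold in that subcluster, where 8.95% of 15310 genes did. In subcluster 3, Fmod was at 7.25 and 17.4 CPM (-1.26), as the 1 gene over 2-fold lower where 2.96% of 14818 genes were. In subcluster 5 the median log2 ratio was 0.02 and none passed 2-fold in either direction, where 8.03% of 13606 genes did. In the low-UMI subcluster 4, Kera (-2.13, from 30 and 47 UMIs) and Podn (-1.08, from 77 and 58 UMIs) were over 2-fold lower, where 5.62% of 12111 genes were. Ogn, Aspn, Kera and Lum had ratios below 0 in all 6 subclusters.

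**Figure D4:**
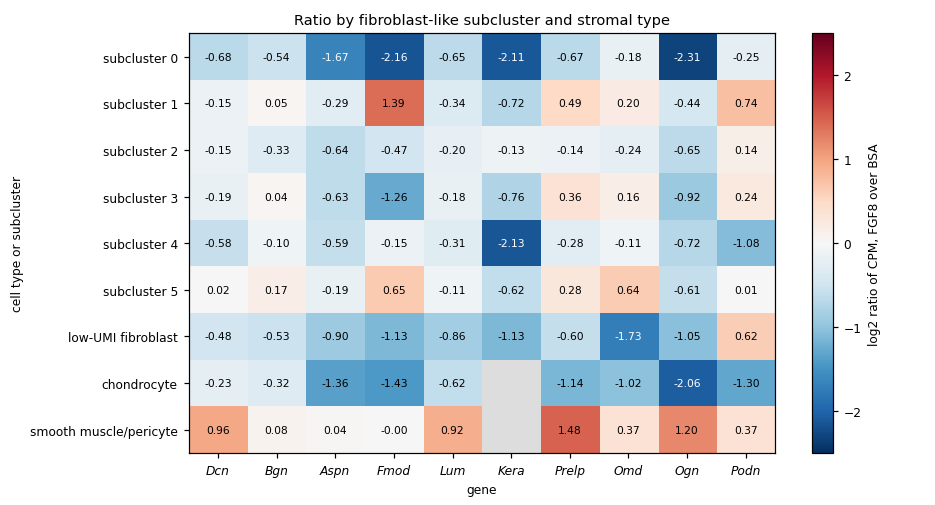
Log2 ratio of CPM, FGF8 over BSA, for each SLRP gene (columns) in 6 fibroblast-like subclusters and 3 other stromal types (rows), blue where lower in FGF8 and red where higher, and grey with fewer than 10 UMIs. Subcluster 0 and chondrocyte-like cells hold the darkest blue cells for Ogn (-2.31 and -2.06). Of the Ogn UMIs of BSA chondrocyte-like cells, 57.9% lay in the 5 highest cells. Fmod is at -2.16 in subcluster 0 and at 1.39 in subcluster 1, where its level was low (20.7 CPM in FGF8, 7.92 in BSA).

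Chondrocyte-like cells, 140 in FGF8 and 66 in BSA, in which all 12 chondrocyte markers were detected, gave the largest count of genes lower in FGF8. Of the 9 genes with at least 10 UMIs there, 6 were over 2-fold lower in FGF8, where 5.94% of 12145 genes were. Ogn was at 28.5 CPM in FGF8 and 119 in BSA (log2 ratio -2.06), Fmod at 196 and 530 (-1.43), Prelp at 124 and 273 (-1.14) and Omd at 121 and 245 (-1.02). Split by sex, these 4 stood at -3.17, -2.32, -1.54 and -2.05 among females and at -1.44, -1.40, -0.93 and -1.17 among males. The 5 highest of the 66 BSA cells held 57.9% of the Ogn UMIs and 42.5% of those of Omd. For Fmod and Prelp such cells held 26.1% and 29.6%. Aspn, at 41.5 and 107 CPM (-1.36), rested on few cells. In BSA, 78.3% of its UMIs lay in the 5 highest cells, and its log2 ratio was -0.18 among females and 2.86 among males. The sixth was Podn, with 8 and 10 UMIs and an interval from -2.84 to 0.20. Dcn was at 1015 and 1192 CPM (-0.23) and Bgn at 993 and 1237 (-0.32).

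Among the other family genes, chondrocyte-like cells showed both directions. Chad, chondroadherin of cartilage, was at 898 CPM in FGF8 and 273 in BSA (log2 ratio 1.72), and Epyc, epiphycan of growth cartilage, was at 226 and 552 CPM (-1.29). In smooth muscle or pericyte-like cells Bgn (log2 ratio 0.08) and Aspn (0.04) were close between the libraries, with intervals of 0.01 to 0.16 and -0.07 to 0.15. Dcn was higher there at 459 against 236 CPM (0.96), or 0.15 among females and 2.25 among males. The 5 highest of 185 BSA cells held 49.6% of its UMIs, and the 5 highest of 283 FGF8 cells 22.3%. In neutrophil-like cells Dcn stood at 241 CPM in FGF8 and 63.8 in BSA. Of the 9 genes measured in smooth muscle or pericyte-like cells, Prelp and Ogn were over 2-fold higher, where 5.43% of 13215 genes were. They rested on 59 and 17 and on 40 and 14 UMIs. Ogn, at 11.2 CPM in FGF8 and 4.87 in BSA, was near its level in neutrophil-like cells (17.4 and 3.54). The part of free RNA in these values was not tested.

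The partners of the SLRPs were measured in fibroblast-like cells as lists. Of the 8 other family genes 2 were over 2-fold lower, where 5.11% of all genes were, and the list's median log2 ratio was -0.69. They were Ecm2, the neighbour of Aspn, at 20.6 CPM in FGF8 and 47.8 in BSA (-1.21), and Chad at 1.91 and 7.37 (-1.95). Split by the sex call (females, then males), Ecm2 stood at -1.62 and -0.96 and Chad at -1.17 and -2.10. Nyx was the highest at 0.83, from 27 UMIs in all. Of 11 fibrillar and fibril-associated collagens, on which the SLRPs sit, all had ratios below 0, with a median of -0.67. Col1a1 was at 6217 and 13268 CPM (-1.09) and Col14a1 at 327 and 673 (-1.04), and these 2 were over 2-fold lower, against the same 5.11% of all genes. Col1a1 stood at -1.31 among females and -0.99 among males, and Col14a1 at -1.10 and -1.31.

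The enzymes that build the glycosaminoglycan chains were closer between the libraries. Of 29 measured, 1 was over 2-fold lower, B3gnt7 with 6 and 13 UMIs, a share near the 5.11% of all genes, and the median was -0.17. Csgalnact1, which starts chondroitin sulfate chains, was the highest at 139 against 75.9 CPM (0.87), and Chst5, a keratan sulfate sulfotransferase, was the lowest with over 100 UMIs, at 2.87 against 5.42 CPM (-0.92). Of 20 growth factors and receptors listed as signalling partners, Met was the 1 gene over 2-fold higher, where 6.5% of all genes were. Met was at 9.56 against 4.71 CPM (1.02), and Tgfb3 was the lowest at 46.0 against 71.3 CPM (-0.63). Split by sex, Met stood at 1.01 among females and 0.81 among males. The median of the list was -0.12.

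Of 15 proteases and their enhancers, 3 were over 2-fold higher, where 6.5% of all genes were, and 1 was over 2-fold lower, where 5.11% were. Mmp3, the matrix protease stromelysin, was at 644 CPM in FGF8 and 31.9 in BSA (log2 ratio 4.33). Mmp9 was at 5.90 and 0.818 CPM (2.85) and Pcolce2, an enhancer of procollagen cleavage, at 1.28, from 2701 and 566 UMIs. Htra1, a serine protease that cleaves SLRPs, was at 225 and 464 CPM (-1.05). Htra1 stood at -1.32 among females and -0.94 among males, while Mmp3, Mmp9 and Pcolce2 were over 2-fold higher in each sex. Whether the protein of any SLRP was cut was not measured.

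The genes most alike in level were found by Pearson's r of log2(CPM + 1) over 32 points, the 16 types in both libraries, among 16234 genes outside the SLRP family. The points share libraries, depth and the clustering, so r is given as a description. Outside the family, Lum, Bgn and Dcn were each closest to Serpinf1 (r = 0.98, 0.97 and 0.94), which codes for the secreted factor PEDF. Aspn was closest to Gas1 (0.96), Ogn to Cpxm1 (0.96), Podn to the prostaglandin receptor gene Ptgfr (0.95) and Prelp to Ccdc80 (0.95). Fmod stood apart with Acan (0.92), the gene of the cartilage proteoglycan aggrecan, Pitx1 (0.91) and Kcnma1 (0.89). Kera was closest to Angptl1 (0.92) and Eln (0.92), the gene of elastin, and Omd to Kazald1 (0.91), Pth1r (0.89) and Nog (0.89). Among the 10 genes themselves the lowest r was 0.57, between Fmod and Podn.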

How the data were processed

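Per the study's methods, the authors ran Cell Ranger 9.0.0 with default parameters on the GRCm39-2024-A reference, after 10x 3′ v3.1 libraries. The submitters' processing notes also name mm10, in no stated role. The deposited matrices hold counts of UMIs for every gene in every barcode, not normalized. Cells with more than 200 and fewer than 7500 genes and under 15% mitochondrial UMIs were kept, as the study did. Counts were normalized with sctransform 0.4.2, and the libraries were integrated by canonical correlation analysis, the method the study used. Clustering was run in Seurat 5.3.0 (R 4.3.3, 30 components) at resolution 0.05, then at 0.2 within the fibroblast-like and the other cells. Unlike in the study's methods, SLRP genes were kept out of the clustering features. Both re-clusterings, of the fibroblast-like and of the other cells, also excluded genes on the sex chromosomes. Clusters were named X-like from fixed marker lists; the rule that weighs those markers was set after the data were seen. No doublet caller was run.

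For each cell type, the UMIs of a library were added up and scaled to CPM. Intervals are 95% exact Poisson, Clopper-Pearson or conditional (scipy 1.17.1). A gene counted in a comparison had at least 10 UMIs, and 2-fold meant a log2 ratio of at least 1 in size. Cells with Xist and no Y-linked UMI were called female, and the reverse male. The computation of ratios and intervals was checked on simulated Poisson counts. These hold no spread between animals, cells or preparations, so the check does not bear on such spread. The named genes are the 10 SLRP genes, the 3 genes most alike to each, and of each list those with at least 100 UMIs past 2-fold, otherwise its highest and lowest. The genes and lists were chosen with earlier results of these data known, and Ogn is in a list the study drew from them. Chst6 was not analysed here.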

Additional observations from a re-analysis of the deposited data

Results flagged for a closer look

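Fmod and Aspn were each over 2-fold lower in one cell type and over 2-fold higher in another, with counting intervals on opposite sides of 0 and at least 100 UMIs in each. Fmod had a log2 ratio of FGF8 over BSA of -2.16 in fibroblast-like subcluster 0 (1104 and 1156 UMIs) and of 1.39 in subcluster 1 (214 and 74 UMIs). The difference was not tested, since each treatment is 1 library. In subcluster 1 Fmod stood at 20.7 CPM in FGF8 and 7.92 in BSA, against 13.2 and 3.54 in neutrophil-like cells, which should lack it. Aspn had a log2 ratio of -1.67 in subcluster 0 (11163 and 8319 UMIs) and of 2.96 in erythroid-like cells, from 136 UMIs in FGF8 and 5 in BSA. In erythroid-like cells 1832 of 3662 genes were over 2-fold higher, and the difference between the cell types was not tested.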

How the results depend on the processing

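Of the 10 SLRP genes, 4 were over 2-fold lower in fibroblast-like cells and the median log2 ratio was -0.59. The count was 0 with the stricter cell filter (median -0.44), with cells thinned to 2000 UMIs (-0.48), in male-called cells alone (-0.37), at the same subcluster makeup (-0.33) and without the Prg4 and mitosis subcluster (-0.23). It was 2 with fibroblast-like cells called per cell (median -0.47), 1 with cells thinned to 5000 UMIs (-0.46) and 1 with cells weighted equally (-0.51). Centred on the median of all genes it was 3, with a median of -0.52. The cause was not tested. Other settings, among them SLRP genes left among the clustering features, cells with other-lineage markers left out and female-called cells alone, gave counts of 4, or 5 at 1.5-fold. The count of 7 genes highest in a fibroblast-like subcluster was the same in its 4 alternatives, with no share of all genes given beside it. Leaving out the Prg4 and mitosis subcluster, leaving out the low-UMI subcluster, adding the low-UMI fibroblast-like cluster and the finer clustering were chosen after seeing the data. No paired analysis was possible because each treatment is 1 library of pooled mice, so treatment, animals, sex makeup and preparation cannot be told apart. Depth limits Kera and Podn outside the fibroblast-like cells, and Omd outside these and the chondrocyte-like cells, where few UMIs were counted.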
